A study of Mus musculus with 2 samples.

Results

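Cxcl10-high cells were the cultured mouse renal progenitors that held most transcript of the chemokine gene Cxcl10 for their size. They were chosen within each of 2 libraries as the top 10% of cells by Cxcl10 UMIs (unique molecular identifiers, 1 per captured molecule) over all UMIs of the cell, with at least 1 Cxcl10 UMI. The choice took 513 of 5135 cells, 228 of 2281 in the panobinostat library and 285 of 2854 in the vehicle library. They were set against the cells of the same library with 0 Cxcl10 UMIs, 1291 with panobinostat and 2321 with vehicle. Because Cxcl10 chose the cells, its own level describes them and is not a result.

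The panobinostat library came from cells given 0.2 µM of panobinostat, an inhibitor of histone deacetylases, for 48 h, and the vehicle library from cells given DMSO for the same time, both after 16 h of starvation. All cells carried Pax2.rtTA and TetO.Cre with the R26.mT/mG reporter on C57Bl/6, and grew out of glomeruli of 9-week-old mice for 5 days. The Pax2 promoter drives the inducible Cre, which switches membrane tdTomato to GFP, and cells were sorted on GFP, so each library holds descendants of cells in which that promoter was active. Each treatment has 1 library, and its cells came from 2 mice that no label tells apart. No test between cell groups or treatments was therefore run, since cells are not replicates, and every interval below is a 95% interval for counting error only. What the treatment did and what else set the libraries apart cannot be told apart.

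Cxcl10 (chr5:92346638-92348889, minus strand, GENCODE M21 on GRCm38) encodes a small secreted chemokine that draws T cells and other lymphocytes through the receptor Cxcr3. Its transcription is switched on by interferons and, through NF-kB, by inflammatory signals such as tumour necrosis factor. In the kidney, glomerular and tubular epithelial cells are known to make it during inflammation, together with other chemokines and with Csf1, the growth factor of macrophages.

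The Cxcl10-high cells held 8735 of the 11964 Cxcl10 UMIs with panobinostat (73.0%) and 1671 of 1952 with vehicle (85.6%). These cells were picked by their Cxcl10 level, so high shares follow from the choice and only describe the cells. With vehicle, 533 of 2854 cells held any Cxcl10 UMI, and 285 of the 533 were chosen as Cxcl10-high. A Cxcl10-high cell held 6 to 181 Cxcl10 UMIs with panobinostat, with a median of 29.5, against 1 to 57 with vehicle, with a median of 3, and 43 of the vehicle cells were chosen on a single UMI. Per cell the level lay between 287 and 4341 UMIs per 1000000 (CPM) with panobinostat, median 603, and between 43.6 and 2223 CPM with vehicle, median 98.1. The same label thus covers a lower range of Cxcl10 with vehicle. At the edge of the choice, the last cell inside held 22 Cxcl10 UMIs of 76608 in the panobinostat library and the first cell outside 8 of 27981. In the vehicle library these cells held 2 of 45915 and 3 of 68941 UMIs. Over whole libraries, 43.4% of panobinostat cells (interval 41.4 to 45.5) and 18.7% of vehicle cells (17.3 to 20.2) held a Cxcl10 UMI. After each cell was thinned to 18663 UMIs, the shares were 33.8% with panobinostat and 14.7% with vehicle.

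**Figure D1:**
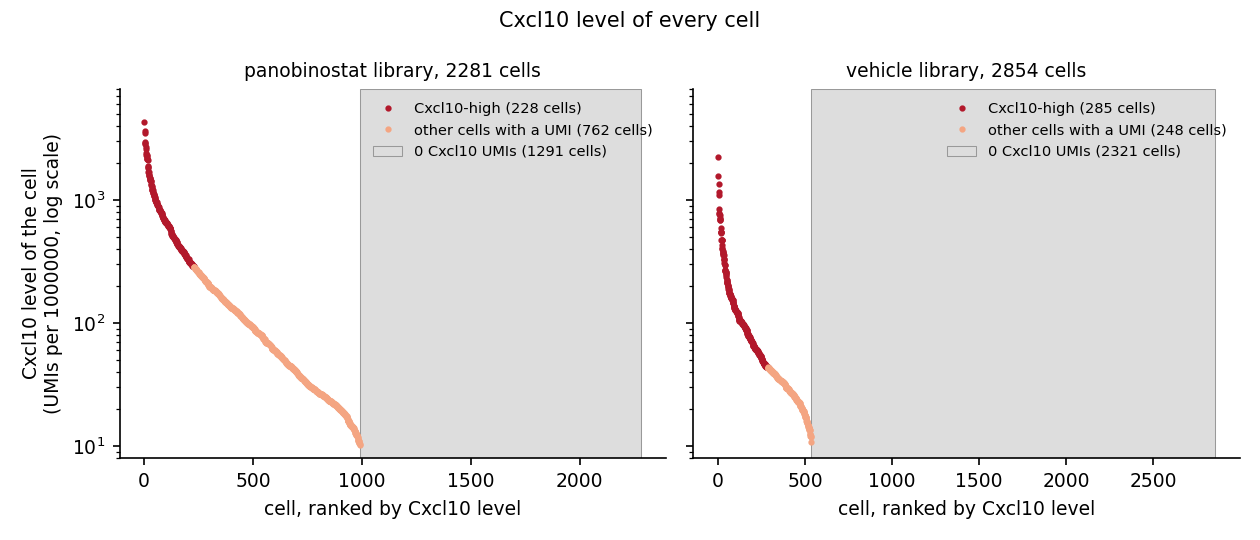
Cxcl10 level of every cell (vertical axis, UMIs per 1000000, log scale) against its rank in the library (horizontal axis), with Cxcl10-high cells in red, other cells with a UMI in orange and cells with 0 UMIs as a grey area. Cxcl10-high cells began at 287 CPM with panobinostat and at 43.6 CPM with vehicle, and neither curve has a step at that point.

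Cxcl10-high cells were deeper than cells with 0 Cxcl10 UMIs, with medians of 46100.5 against 38521 UMIs with panobinostat and 30272 against 26662 UMIs with vehicle. The median mitochondrial share was 6.88% against 7.05% with panobinostat and 4.94% against 5.16% with vehicle. The libraries shared 0 barcodes. A reference matched cell by cell on total UMIs was among the alternatives. Among the genes described below, it ended the panobinostat call of Sparc. With vehicle it ended the calls of Csf1, Lox, Cdkn1c, Ptges, Ltc4s, Sprr2f and Gm4610. No doublets were removed, and the part of doublets in the deeper cells was not tested.

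Calls were made by size: the UMIs summed over Cxcl10-high cells had to give at least 2-fold the CPM of cells with 0 Cxcl10 UMIs, or to lie as far below it, with an interval of the log2 ratio that excluded equality and at least 10 CPM in 1 of the 2 cell groups. With panobinostat, 49 of 8329 genes at or above 10 CPM were called higher (0.588%) and 32 lower (0.384%). With vehicle, 10 of 8295 were called higher (0.121%) and 9 lower (0.108%). The median log2 ratio over all these genes was -0.04 with panobinostat and 0.0042 with vehicle, and list medians below are to be read against these values. Counts of called list members below are likewise to be read against the called shares above. At such shares a short list without any call is near all genes. Where 1 cell group lay under 10 CPM, a gene entered by its level in the other, so its direction was tilted by the floor.

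Of the genes called higher, Csf1, Lox and AI593442 were called in both libraries, which is 6.12% of the panobinostat list and 30% of the vehicle list. Of the genes called lower, Ptges, Sprr2f, Gm4610, Dhrs3 and Ltc4s were called in both (15.6% and 55.6% of the lists). With vehicle all 5 reached 10 CPM in the 0-UMI cells alone, as did all but Ptges with panobinostat, so there the floor fixed their direction, and with a floor of 50 CPM 0 were called lower in both. With panobinostat Lox reached 10 CPM in the Cxcl10-high cells alone. Under the alternatives, the genes called higher in both libraries numbered between 0, with a 3-fold rule, and 25, with no floor, and were 10 with the top 5% of cells and 1 without the top cell of each gene. The libraries share no cells. No gene was called in opposite directions, but with 0.121% of vehicle genes called higher and 0.108% lower this says little. Of the 34 genes called higher with panobinostat that also reached 10 CPM in a vehicle cell group, 33 had a positive log2 ratio there. For 30 the interval excluded equality. Their median was 0.57, against 0.0042 over all vehicle genes at or above 10 CPM. The shares of all genes with a positive ratio or such an interval were not counted, so the 33 and 30 have no background beside them.

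**Figure D2:**
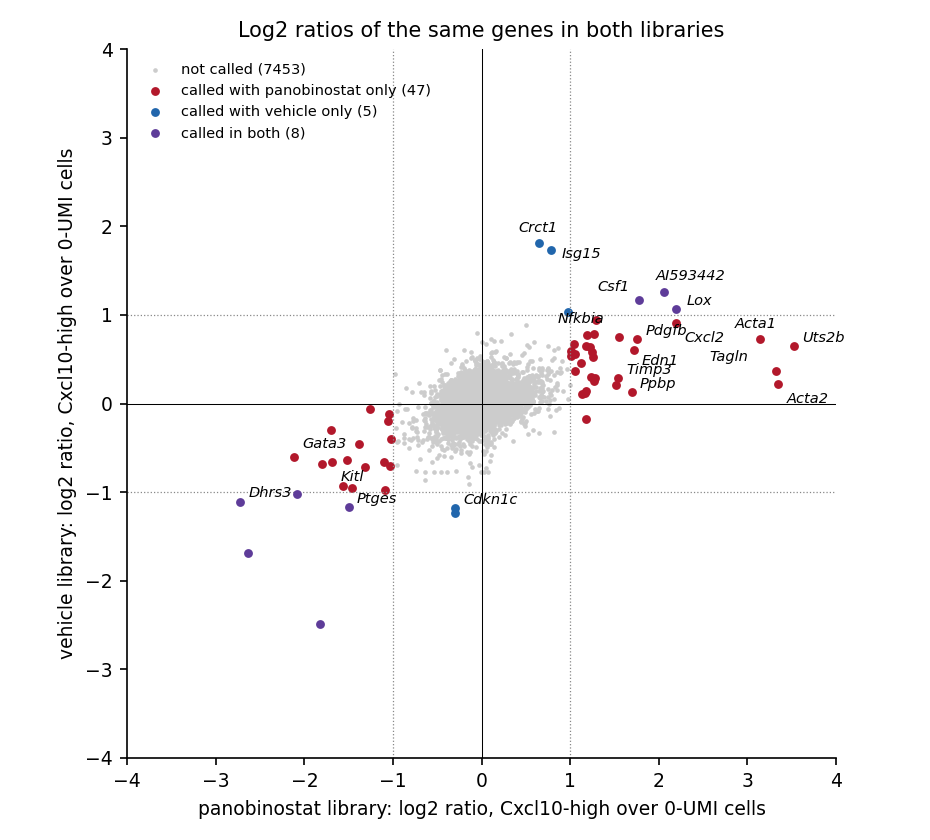
Log2 ratio of Cxcl10-high over 0-UMI cells with panobinostat (horizontal axis) and with vehicle (vertical axis) for each gene at or above 10 CPM in both libraries, Cxcl10 left out, coloured by the library in which it was called. Most called genes lie in the lower left and upper right, closer to 0 on the vehicle axis, and dotted lines mark a 2-fold difference.

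Of the markers given for these cells, Csf1 was called in both libraries and Isg15 with vehicle alone, where the floor fixed its direction. Csf1, which drives the survival and growth of macrophages, stood at 429 CPM in Cxcl10-high cells and 125 CPM in 0-UMI cells with panobinostat (log2 ratio 1.78, interval 1.72 to 1.83). With vehicle it stood at 124 and 55.0 CPM (1.17, interval 1.08 to 1.26). The panobinostat call held under all 21 alternatives, with log2 ratios of 1.15 to 1.97, while the vehicle call ended under 4 of 19, among them the reference matched on UMIs (0.91) and thinned cells (0.94). Thinned to equal depth, 88.9% of Cxcl10-high cells (interval 84.0 to 92.7) and 57.6% of 0-UMI cells (54.8 to 60.4) held a Csf1 UMI with panobinostat. With vehicle the thinned shares were 65.9% (59.6 to 71.7) and 47.5% (45.3 to 49.8), against 74.0% and 52.8% before thinning. Every cell was sorted for 1 lineage, so no cell type known to lack Csf1 could give a background share. The per-cell level of Csf1 with panobinostat had a median of 323 CPM in Cxcl10-high cells and 44.7 CPM in 0-UMI cells, but the 10th percentile of the Cxcl10-high cells, 38.5 CPM, lay below the 0-UMI median, so single cells of both groups overlapped.

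Isg15, a ubiquitin-like protein induced by interferon, stood at 76.6 CPM in Cxcl10-high cells and 44.5 CPM in 0-UMI cells with panobinostat, a log2 ratio of 0.78 (interval 0.67 to 0.90) that is under 2-fold. With vehicle it was called higher at 17.7 against 5.31 CPM, a log2 ratio of 1.73 (1.47 to 2.00). There it reached 10 CPM in the Cxcl10-high cells alone, so the floor fixed its direction. With a floor of 50 CPM the call ended. The vehicle difference rested on few cells: 47 of 285 Cxcl10-high cells and 260 of 2321 0-UMI cells held an Isg15 UMI, and 1 Cxcl10-high cell held 21.7% of the 175 UMIs. Without that cell the log2 ratio was 1.39. Thinned shares with an Isg15 UMI were 37.8% and 31.8% with panobinostat and 10.8% and 7.25% with vehicle, with overlapping intervals in each library. Of the given markers, Csf1 was thus called in both libraries and Isg15 with vehicle. With panobinostat Isg15 was called under 4 alternatives, a 1.5-fold rule, the top 5% of cells (1.00), the mean over cells (1.07) and the UMI-matched reference (1.28). The cells are named here by their Cxcl10 level.

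Other chemokine genes were called higher in Cxcl10-high cells with panobinostat. Of 5 CXC chemokine genes at or above 10 CPM, 3 were called higher with panobinostat (Cxcl1, Cxcl2 and Ppbp; list median log2 ratio 1.27), and of 4 with vehicle none was called (median 0.48). Cxcl2, which draws neutrophils through the receptor Cxcr2, stood at 44.5 CPM in Cxcl10-high cells and 9.69 CPM in 0-UMI cells with panobinostat (log2 ratio 2.20), and at 32.9 and 17.5 CPM with vehicle (0.91). Its close relative Cxcl1 stood at 98.2 and 40.6 CPM with panobinostat (1.27) and at 77.0 and 44.8 CPM with vehicle (0.78). The Cxcl1 call ended under 5 alternatives, among them the reference of all other cells and that weighted to the clusters of the Cxcl10-high cells (0.97). Ppbp, the platelet basic protein precursor, stood at 176 and 54.6 CPM with panobinostat (1.69), but at 358 and 328 CPM with vehicle (0.13). In cluster 0 of the panobinostat library alone, which holds most of its Cxcl10-high cells, the Ppbp call ended at 0.26. Cxcl16 stayed under 2-fold in both libraries, at 0.46 and 0.18. Cxcl9, another interferon-induced ligand of Cxcr3, had 1 UMI in Cxcl10-high and 0 in 0-UMI cells with panobinostat and 0 in both with vehicle.

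The UMIs of Ccl2, Ccl20, Ccl5 and Il11 came from fewer Cxcl10-high cells than those of Cxcl1 and Cxcl2. Ccl2, a monocyte chemokine, was called higher with vehicle at 21.7 CPM in Cxcl10-high cells against 4.41 CPM in 0-UMI cells (log2 ratio 2.30), with UMIs in 28 of 285 and 69 of 2321 cells. It reached 10 CPM in the Cxcl10-high cells alone, where 1 cell held 65 of its 215 UMIs. Its call ended with a floor of 50 CPM and held without that cell. With panobinostat Ccl2 stayed under the 10 CPM floor at 3.94 against 0.559 CPM (2.82, interval 2.12 to 3.54), in 17 of 228 and 12 of 1291 cells. Ccl20, a ligand of Ccr6, was called higher with panobinostat at 107 against 45.2 CPM, yet 1 cell held 471 of its 1192 UMIs, and without that cell the log2 ratio was 0.52 in place of 1.24. The call of Il11 with vehicle (24.3 against 2.18 CPM) likewise rested on 1 cell with 213 of 241 UMIs, and Ccl5 with panobinostat had 51 of 56 UMIs in 1 cell. Apart from Csf1 and Il11, none of the other 7 panobinostat and 10 vehicle members at or above 10 CPM of the list of inflammatory cytokines and growth factors was called, and the list medians were 0.52 and 0.22.

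Most genes for NF-kB subunits, kinases and inhibitors had positive log2 ratios, nearly all under 2-fold. The share of all genes with a positive ratio was not counted. Of 16 genes for NF-kB subunits, kinases and inhibitors at or above 10 CPM, 13 had a positive log2 ratio with panobinostat (median 0.38), and 15 of 18 with vehicle (median 0.12). Nfkbia, which encodes the inhibitor IκBα and is itself an NF-kB target, was the 1 member called, at 169 CPM in Cxcl10-high cells and 74.5 CPM in 0-UMI cells with panobinostat (log2 ratio 1.19, interval 1.11 to 1.26). That call ended under 4 of 21 alternatives, at 0.84 with the top 20% of cells, 0.99 in cluster 0 alone, 0.58 in cluster 3 alone and with a 3-fold rule. With vehicle it stood at 165 and 96.9 CPM (0.77, interval 0.69 to 0.85). The subunit gene Nfkb1 had log2 ratios of 0.66 and 0.25, and Tnfaip3, a deubiquitinase that dampens the pathway, 0.69 and 0.40. Of the further NF-kB target genes, 11 with panobinostat and 14 with vehicle reached 10 CPM and none was called. Of these, 8 with panobinostat and 7 with vehicle had a positive log2 ratio, with medians of 0.17 and -0.01. Among them the adhesion gene Icam1 stood at 37.0 and 25.5 CPM with panobinostat (0.54) and at 13.6 and 8.72 CPM with vehicle (0.64). Vcam1, also an adhesion gene, reached 24.6 against 12.5 CPM with vehicle (0.98), just under the call.

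The promoters of Cxcl10, the given markers and chemokine, NF-kB and interferon-stimulated genes are shown because Cxcl10 is known to be driven both by NF-kB and by interferon factors. They were chosen with their matches known, so that each shows a motif says nothing about called genes in general. Of other called genes searched but not printed, Acta2 and Timp3 held no exact match to any motif. Ppbp held a CArG box and an AP-1 core, Edn1 an ISRE core and Ccl20 an NF-kB match. Near matches were not counted, so a promoter without a match may still hold a variant of a motif. Each is the RefSeq sequence on GRCm38.p6 from 250 bases before to 50 bases after the start of the gene, 5′ to 3′ on the strand of the gene, and capitals mark letters that match a motif on either strand. The motifs searched were the NF-kB consensus, the CArG box, the interferon-stimulated response element (ISRE) core, which reads GAAA, any 2 bases and GAAA again, and the AP-1 core TGANTCA.
Cxcl10 (chr5:92348840-92349139, minus strand): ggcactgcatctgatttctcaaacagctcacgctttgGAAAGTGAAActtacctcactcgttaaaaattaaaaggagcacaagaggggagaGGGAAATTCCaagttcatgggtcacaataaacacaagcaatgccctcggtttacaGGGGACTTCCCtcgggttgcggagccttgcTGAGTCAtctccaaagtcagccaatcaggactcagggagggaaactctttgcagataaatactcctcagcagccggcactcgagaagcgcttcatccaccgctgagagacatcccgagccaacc
Csf1 (chr3:107760420-107760719, minus strand): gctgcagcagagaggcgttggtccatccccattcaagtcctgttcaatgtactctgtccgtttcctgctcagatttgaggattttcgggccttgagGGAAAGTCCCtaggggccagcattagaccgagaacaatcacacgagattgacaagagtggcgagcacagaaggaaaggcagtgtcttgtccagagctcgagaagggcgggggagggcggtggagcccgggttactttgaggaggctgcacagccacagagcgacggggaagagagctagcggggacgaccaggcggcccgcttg
Cxcl1 (chr5:90890995-90891294, plus strand): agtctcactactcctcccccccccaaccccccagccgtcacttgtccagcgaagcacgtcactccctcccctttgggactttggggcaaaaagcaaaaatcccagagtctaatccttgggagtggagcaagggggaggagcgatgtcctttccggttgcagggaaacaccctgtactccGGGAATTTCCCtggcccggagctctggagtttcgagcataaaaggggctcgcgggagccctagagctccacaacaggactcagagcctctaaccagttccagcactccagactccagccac
Cxcl2 (chr5:90903649-90903948, plus strand): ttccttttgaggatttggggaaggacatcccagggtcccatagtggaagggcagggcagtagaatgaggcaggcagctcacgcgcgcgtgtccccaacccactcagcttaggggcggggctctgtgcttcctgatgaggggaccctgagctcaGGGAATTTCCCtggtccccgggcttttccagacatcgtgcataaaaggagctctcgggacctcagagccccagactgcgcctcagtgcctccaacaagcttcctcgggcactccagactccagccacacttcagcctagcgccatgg
Nfkbia (chr12:55492598-55492897, minus strand): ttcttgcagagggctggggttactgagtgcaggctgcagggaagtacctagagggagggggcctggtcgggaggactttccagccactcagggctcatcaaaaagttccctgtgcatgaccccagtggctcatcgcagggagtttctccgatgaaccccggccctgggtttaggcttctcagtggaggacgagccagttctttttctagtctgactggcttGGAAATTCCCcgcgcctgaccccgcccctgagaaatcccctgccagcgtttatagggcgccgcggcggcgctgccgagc
Isg15 (chr4:156200769-156201068, minus strand): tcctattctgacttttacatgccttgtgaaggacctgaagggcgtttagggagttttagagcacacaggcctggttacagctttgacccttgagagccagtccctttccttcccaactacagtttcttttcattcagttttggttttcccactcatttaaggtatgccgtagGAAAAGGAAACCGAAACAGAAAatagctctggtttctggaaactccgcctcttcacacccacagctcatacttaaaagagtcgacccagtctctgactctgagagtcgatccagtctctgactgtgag
Rsad2 (chr12:26456403-26456702, minus strand): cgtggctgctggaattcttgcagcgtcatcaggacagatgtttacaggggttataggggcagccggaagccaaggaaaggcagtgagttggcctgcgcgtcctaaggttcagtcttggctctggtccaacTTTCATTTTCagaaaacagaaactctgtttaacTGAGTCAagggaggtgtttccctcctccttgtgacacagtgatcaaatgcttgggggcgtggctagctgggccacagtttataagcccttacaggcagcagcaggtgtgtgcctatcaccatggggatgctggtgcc

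The Cxcl10 promoter held an ISRE core that began 213 bases before the start, NF-kB matches at 159 and, overlapping each other, at 104 and 103 bases, and an AP-1 core at 74 bases. Csf1, Cxcl1, Cxcl2 and Nfkbia each held an NF-kB match and no ISRE core, at 154 bases before the start for Csf1, at 71 and 70 (overlapping) for Cxcl1, at 97 and 96 (overlapping) for Cxcl2 and at 29 for Nfkbia. Isg15 held ISRE cores that began at 78, 72 and 66 bases and overlap their neighbours, and Rsad2 an ISRE core on the opposite strand at 120 and an AP-1 core at 87 bases, neither with an NF-kB match. Of the 49 genes called higher with panobinostat, 35 had a promoter in the table, and 6 of their 39 promoters held the NF-kB consensus (15.4%), those of Ccl20, Csf1, Cxcl1, Cxcl2, Nfkbia and Uts2b. The share was 10.2% over the promoters of genes at or above 10 CPM in either library and 8.46% over all 32851 promoters. The ISRE core stood in 3 of the 39 (7.69%), against 2.87% at or above 10 CPM and 3.44% of all promoters. The AP-1 core stood in 6 (15.4%), against 4.87% and 7.81%, and the CArG box in 4 (10.3%), against 1.36% and 1.63%. Of the 39 promoters matched to 28 of the 32 genes called lower with panobinostat, 3 held the NF-kB consensus (7.69%), 4 the ISRE core (10.3%), 9 the AP-1 core (23.1%) and 0 the CArG box. By promoter, the ISRE and AP-1 shares were thus no higher among the genes called higher than among those called lower. Some genes have more than 1 promoter. By gene, the ISRE core stood in 3 of 35 called higher (8.57%) and 2 of 28 called lower (7.14%). The AP-1 core stood in 6 of 35 (17.1%) and 7 of 28 (25%). Over genes at or above 10 CPM in either library, these shares were 3.52% and 5.85%. These are matches of letters, not sites shown to be bound.

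Interferon-stimulated genes had small list medians, and their summed level differed little between the cell groups. Of 16 members at or above 10 CPM with panobinostat, 1 was called higher (Rsad2) and none lower, with 9 positive log2 ratios and a median of 0.10. Of 15 with vehicle, 1 was called higher (Isg15) and none lower, with 10 positive and a median of 0.16. Over all genes at or above 10 CPM, 0.588% were called higher with panobinostat and 0.121% with vehicle. Rsad2, which encodes the antiviral protein viperin, stood at 30.3 CPM in Cxcl10-high cells and 10.8 CPM in 0-UMI cells with panobinostat (log2 ratio 1.49, interval 1.29 to 1.69). With vehicle it lay under the floor at 2.32 and 0.856 CPM (1.44, interval 0.68 to 2.15). The sum over the 48 members in the matrix stood at 1159 and 1114 CPM with panobinostat and at 709 and 654 CPM with vehicle. Abundant members weigh most in this sum. Of the 1159 CPM, Isg15 gave 76.6 and Rsad2 30.3 CPM, so the sum says little about such members.

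Several low members of the list were held by few cells. Ifit1, an RNA-binding antiviral protein named here after its values were seen, had 42 UMIs in 6 of 285 Cxcl10-high cells and 17 UMIs in 5 of 2321 0-UMI cells with vehicle. With panobinostat it had 73 UMIs in 22 of 228 and 65 UMIs in 40 of 1291 cells. With vehicle, 1 cell, the fifth by Cxcl10 level with 55 Cxcl10 UMIs, held more UMIs than any other of each of Isg15 (38 of 175), Ifit1 (14 of 42), Usp18 (9 of 27) and Rsad2 (10 of 23) among the Cxcl10-high cells. Usp18, an Isg15 protease, was also named after its values were seen. Of the genes that carry the interferon signal, none of 12 members at or above 10 CPM with panobinostat and 11 with vehicle was called. Irf7 lay under the floor, at 7.26 and 8.87 CPM with panobinostat and at 1.92 and 0.557 CPM with vehicle. None of the 7 panobinostat and 10 vehicle members at or above 10 CPM among the nucleic acid sensors and their adaptors was called either.

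**Figure D3:**
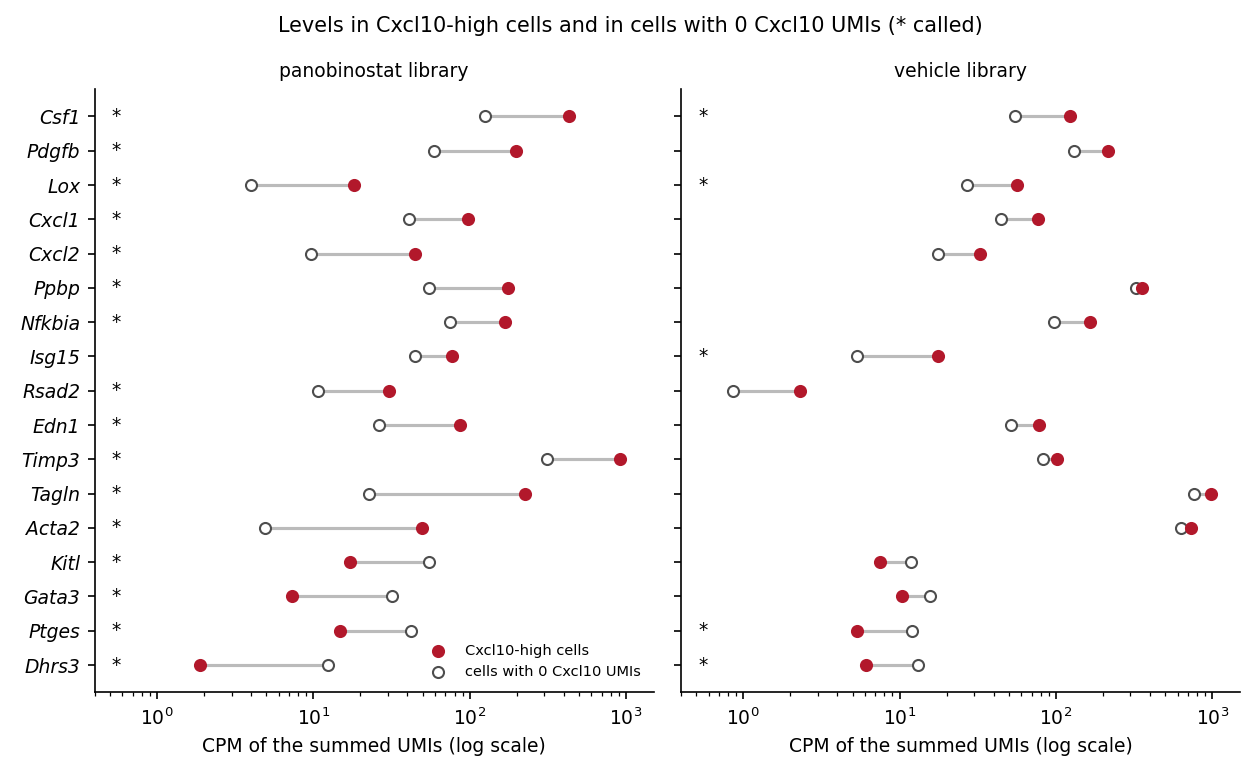
CPM of the summed UMIs (horizontal axis, log scale) in Cxcl10-high cells (red) and in cells with 0 Cxcl10 UMIs (open circles) for chosen genes in the panobinostat library (left) and the vehicle library (right). Asterisks mark genes called by size. Csf1 and Lox are marked in both panels, and Tagln and Acta2 are far apart with panobinostat alone.

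Growth factor, contractile and matrix genes were among those with large differences with panobinostat. Tagln, an actin-binding protein of smooth muscle, stood at 227 CPM in Cxcl10-high cells and 22.6 CPM in 0-UMI cells with panobinostat (log2 ratio 3.33, interval 3.23 to 3.43), but at 981 and 760 CPM with vehicle (0.37). Acta2, smooth muscle alpha-actin, stood at 49.8 and 4.88 CPM with panobinostat (3.35) and at 734 and 632 CPM with vehicle (0.22). These transcripts came from a minority of panobinostat cells: 54 of 228 Cxcl10-high cells held a Tagln UMI, against 107 of 1291 0-UMI cells, and 1 cell held 20.7% of the Tagln and 23.4% of the Acta2 UMIs. Over the 21 alternatives the log2 ratio ran from 1.52, in cluster 0 alone, to 4.61 for Tagln, and from 2.03, with the UMI-matched reference, to 4.20 for Acta2. Of 18 members of the contractile and matrix list at or above 10 CPM with panobinostat, 6 were called higher (Acta2, Tagln, Cnn1, Tnc, Sparc and Timp3) and none lower, with a median of 0.70. Of 19 with vehicle none was called, with a median of 0.17. The calls of Sparc, Cnn1 and Tnc, at log2 ratios of 1.04, 1.22 and 1.27, ended under 6 to 11 of the 21 alternatives.

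Timp3, an inhibitor of matrix metalloproteinases, was the most abundant of the 6 called list members, at 910 CPM in Cxcl10-high cells and 312 CPM in 0-UMI cells (log2 ratio 1.54, interval 1.51 to 1.58). With vehicle it stood at 101 and 83.0 CPM (0.28). Lox, a lysyl oxidase that cross-links collagen, was called higher in both libraries, at 18.3 and 3.99 CPM with panobinostat (2.20) and at 56.6 and 27.0 CPM with vehicle (1.07). The vehicle call of Lox ended under 6 of 19 alternatives, among them the UMI-matched reference (0.74) and leaving out its top cell (0.95). AI593442, for which no role is given here, stood at 62.5 and 14.9 CPM with panobinostat (2.06) and at 36.6 and 15.3 CPM with vehicle (1.26). Its vehicle call ended under 3 of 19 alternatives, among them leaving out its top cell (0.96), which held 19.6% of its UMIs in vehicle Cxcl10-high cells. Pdgfb, a growth factor for mesangial cells and pericytes, stood at 199 and 58.9 CPM with panobinostat (1.76) and at 216 and 131 CPM with vehicle (0.72). Edn1, the vasoconstrictor endothelin, stood at 86.2 and 26.2 CPM with panobinostat (1.72) and at 78.5 and 51.7 CPM with vehicle (0.60). Within cluster 0 of the panobinostat library alone, described below, Pdgfb fell short of the call at 0.89, Timp3 at 0.73, AI593442 at 0.67, Lox at 0.62, Edn1 at 0.48 and Acta1, given next, at 0.17. Among the other genes called with panobinostat by the widest margin were Uts2b, which encodes a urotensin-related peptide and was named after its values were seen (22.05 against 1.92 CPM, log2 ratio 3.52), the skeletal actin Acta1 (125 against 14.2 CPM, 3.14) and Igfbp2, an IGF-binding protein (64.2 against 12.1 CPM, 2.41).

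Transcription factor, growth factor and lipid mediator genes were among those called lower in Cxcl10-high cells. Gata3, a transcription factor of the nephric duct and of mesangial cells, stood at 7.35 CPM in Cxcl10-high cells and 32.0 CPM in 0-UMI cells with panobinostat (log2 ratio -2.12, interval -2.46 to -1.80), and at 10.3 and 15.6 CPM with vehicle (-0.60). Kitl, the ligand of the receptor Kit, stood at 17.1 and 55.0 CPM with panobinostat (-1.68) and at 7.47 and 11.8 CPM with vehicle (-0.66). Both genes lead a cluster that holds few Cxcl10-high cells, and against a reference weighted to the clusters of the Cxcl10-high cells the log2 ratios with panobinostat were -0.23 for Gata3 and 0.26 for Kitl. Ptges, which makes prostaglandin E2, was called lower in both libraries, at 14.8 and 41.9 CPM with panobinostat (-1.501) and at 5.35 and 12.02 CPM with vehicle (-1.17). Ltc4s, the leukotriene C4 synthase, was called lower at -2.64 with panobinostat (1.79 and 11.2 CPM) and -1.68 with vehicle (3.33 and 10.7 CPM). Dhrs3, which reduces retinal, was called lower at -2.73 (1.88 and 12.5 CPM) and -1.11 (6.05 and 13.0 CPM). The calls of Ptges, Ltc4s and Dhrs3 ended in both libraries under the cluster-weighted reference. The vehicle calls of Ptges and Ltc4s also ended with the UMI-matched reference. In Sprr2f, a small proline-rich protein, 1 cell held 59.0% of the Cxcl10-high UMIs with panobinostat and 42.4% with vehicle. Further genes called lower with panobinostat included Zfp36l2, an RNA-decay factor (-1.39), the immediate early gene Fosb (-1.05, a call that ended under 8 of 21 alternatives) and Ecm1, a secreted matrix protein (-1.11). Under the cluster-weighted reference none of these 3 was called.

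Cell cycle phase differed between Cxcl10-high and 0-UMI cells in the vehicle library. Of its Cxcl10-high cells 16.8% were called G1, 41.4% S and 41.8% G2/M, against 38.6%, 30.2% and 31.1% of its 0-UMI cells. With panobinostat 227 of 228 Cxcl10-high cells and 1289 of 1291 0-UMI cells were called G1. With vehicle, 37 of 39 S-phase genes and 50 of 51 G2/M genes at or above 10 CPM had a positive log2 ratio, with medians of 0.43 and 0.36 and none called. Phase was called from scores of these same 2 lists, so their ratios and the phase shares are not separate observations. The proliferation marker Mki67 stood at 173 CPM in Cxcl10-high cells and 117 CPM in 0-UMI cells (log2 ratio 0.56), and the linker histone gene Hist1h1b at 129 and 62.2 CPM (1.06, called higher). Over vehicle cells called G1, 48 of them Cxcl10-high, Hist1h1b had a log2 ratio of -0.19, while Csf1 kept 1.19 and Isg15 2.32. With panobinostat the S-phase and G2/M lists had medians of -0.06 and -0.01. The cyclin-dependent kinase inhibitor Cdkn1c was called lower with vehicle, at 14.3 and 32.4 CPM (-1.18), and stood at 51.5 and 63.5 CPM with panobinostat (-0.30). The vehicle call ended under 6 of 19 alternatives, among them the UMI-matched (-0.67) and the cluster-weighted reference (-0.40), and Cdkn1c is among the leading genes of vehicle cluster 3, which held 10 of the 285 Cxcl10-high cells.

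Cxcl10-high cells differed among themselves in what else they expressed. A cell was taken as high on a list when it was in the top 10% of its library by the summed level of that list. Abundant members weigh most in such a sum. With panobinostat the NF-kB target genes summed to 2107 CPM in Cxcl10-high and 1609 CPM in 0-UMI cells. Of this, Ier3 alone gave 1034 and 700 CPM, while the list median was 0.17 and none was called. A cell high on a list need not be high on most of its members. With panobinostat, 26.3% of Cxcl10-high cells (interval 20.7 to 32.5) and 6.04% of 0-UMI cells (4.81 to 7.48) were high on the NF-kB lists, while 11.4% (7.59 to 16.3) and 9.14% (7.62 to 10.9) were high on the interferon-stimulated list. With vehicle the shares were 15.4% and 9.05% for NF-kB and 10.5% and 10.3% for interferon-stimulated genes. Being high on both was uncommon, at 4.83% and 0.620% with panobinostat and 3.16% and 1.64% with vehicle. High on neither were 67.1% of Cxcl10-high and 85.4% of 0-UMI cells with panobinostat, and 77.2% and 82.3% with vehicle. With the top 20% in place of the top 10%, the shares of Cxcl10-high cells on neither were 44.3% with panobinostat and 57.5% with vehicle. For the single markers, 30.7% of Cxcl10-high and 3.49% of 0-UMI cells were in the top 10% for Csf1 with panobinostat, and 25.3% and 7.80% with vehicle. The top 10% for both Isg15 and Csf1 held 10 of 228 Cxcl10-high (4.39%) and 4 of 1291 0-UMI cells (0.310%) with panobinostat, and 11 of 285 (3.86%) and 27 of 2321 (1.16%) with vehicle.

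Clusters were made per library without the genes of the inflammatory lists, and are called by number and leading genes, since they were not matched to a cell type. Cluster 0 with panobinostat, led by Cldn16, Il5ra and Anxa1, held 58.8% of the Cxcl10-high and 38.1% of the 0-UMI cells. Cluster 3, led by Tagln, Uts2b and Sparc, held 18.9% and 3.10%, and 28.1% of its 153 cells (interval 21.1 to 35.9) were Cxcl10-high. Cluster 1, led by Kitl and Gata3, held 9.65% and 40.1%. With vehicle, cluster 0, led by mitotic genes such as Cenpe, Ube2c and Hmmr, held 42.8% of the Cxcl10-high and 19.2% of the 0-UMI cells, and cluster 3, led by Clu, Ltc4s and Ctla2a, held 3.51% and 18.01%. Tagln, Uts2b, Gata3, Kitl, Clu and Ltc4s helped to make these clusters, so their differences and the cluster shares are not separate observations. Among the 15 nearest cells of a Cxcl10-high cell, 18.2% were Cxcl10-high with panobinostat, against 5.25% for a 0-UMI cell, and with vehicle the shares were 15.9% and 9.26%.

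**Figure D4:**
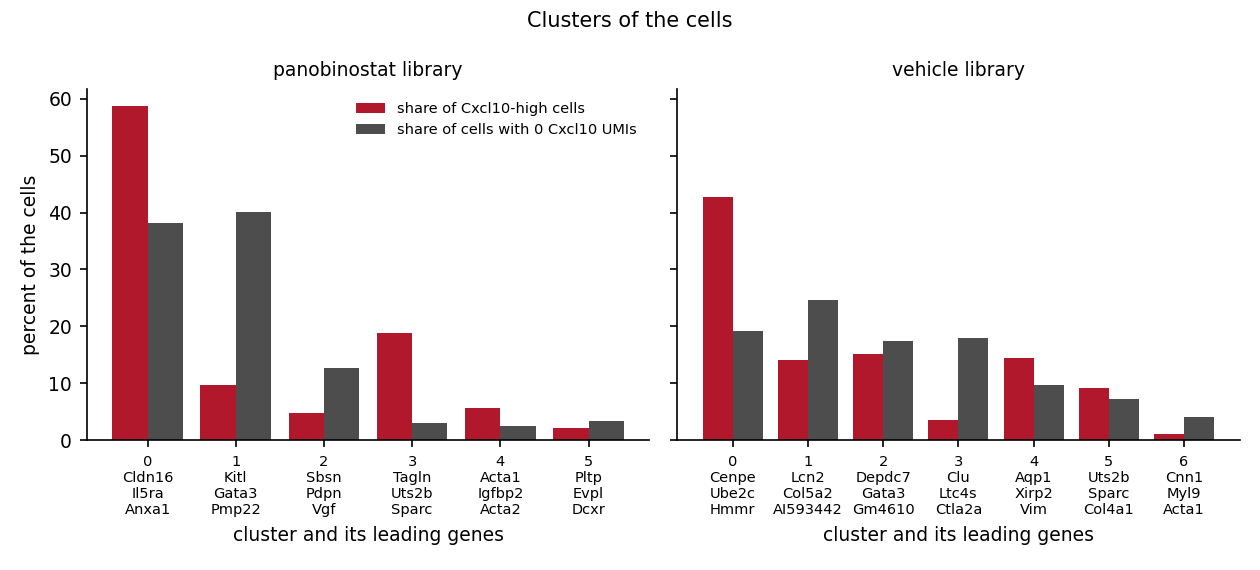
Share of the Cxcl10-high cells (red) and of the cells with 0 Cxcl10 UMIs (grey) in each cluster of the panobinostat library (left) and the vehicle library (right), with the leading genes under each cluster number. Cluster 3 with panobinostat held 18.9% of the Cxcl10-high cells and 3.10% of the 0-UMI cells, and cluster 0 with vehicle 42.8% and 19.2%.

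Csf1 had a positive log2 ratio within each cluster that held at least 10 Cxcl10-high cells. With panobinostat its log2 ratio was 1.41 in cluster 0 (134 Cxcl10-high and 492 0-UMI cells), 1.73 in cluster 1 (22 and 518), 1.496 in cluster 2 (11 and 164), 1.44 in cluster 3 (43 and 40) and 0.72 in cluster 4 (13 and 33). With vehicle it ran from 0.62 in cluster 3 (10 and 418, interval -0.17 to 1.31) to 1.22 in cluster 2 (43 and 404). Nfkbia varied more, from 0.58 in cluster 3 to 2.37 in cluster 1 with panobinostat. Isg15 with panobinostat went in both directions, from 3.21 in cluster 2 to -2.06 in cluster 4, where the Cxcl10-high cells number 11 and 13.

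Csf1 stood higher in each higher class of Cxcl10 level with panobinostat, and was highest in the top class with vehicle. The other cells with a Cxcl10 UMI were split at their median level into a lower and an upper class. With vehicle 219 of these 248 cells held 1 Cxcl10 UMI, so there the split followed mainly their total UMIs. The step between these 2 vehicle classes is thus not a measure of Cxcl10. With panobinostat, Csf1 stood at 125 CPM in 0-UMI cells, 236 in the lower class, 339 in the upper class and 429 in Cxcl10-high cells. With vehicle the levels were 55.0, 71.8, 75.3 and 124 CPM in the same order. Pdgfb had the same order with panobinostat (58.9, 102, 136 and 199 CPM), and Gata3 the opposite one (32.0, 16.1, 9.46 and 7.35 CPM). Tagln stood at 22.6, 49.6 and 76.1 CPM in the lower 3 classes and at 227 CPM in Cxcl10-high cells with panobinostat. Isg15 with vehicle stood at 5.31, 3.70 and 4.88 CPM in the lower 3 classes, whose intervals overlap, and at 17.7 CPM in Cxcl10-high cells.

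**Figure D5:**
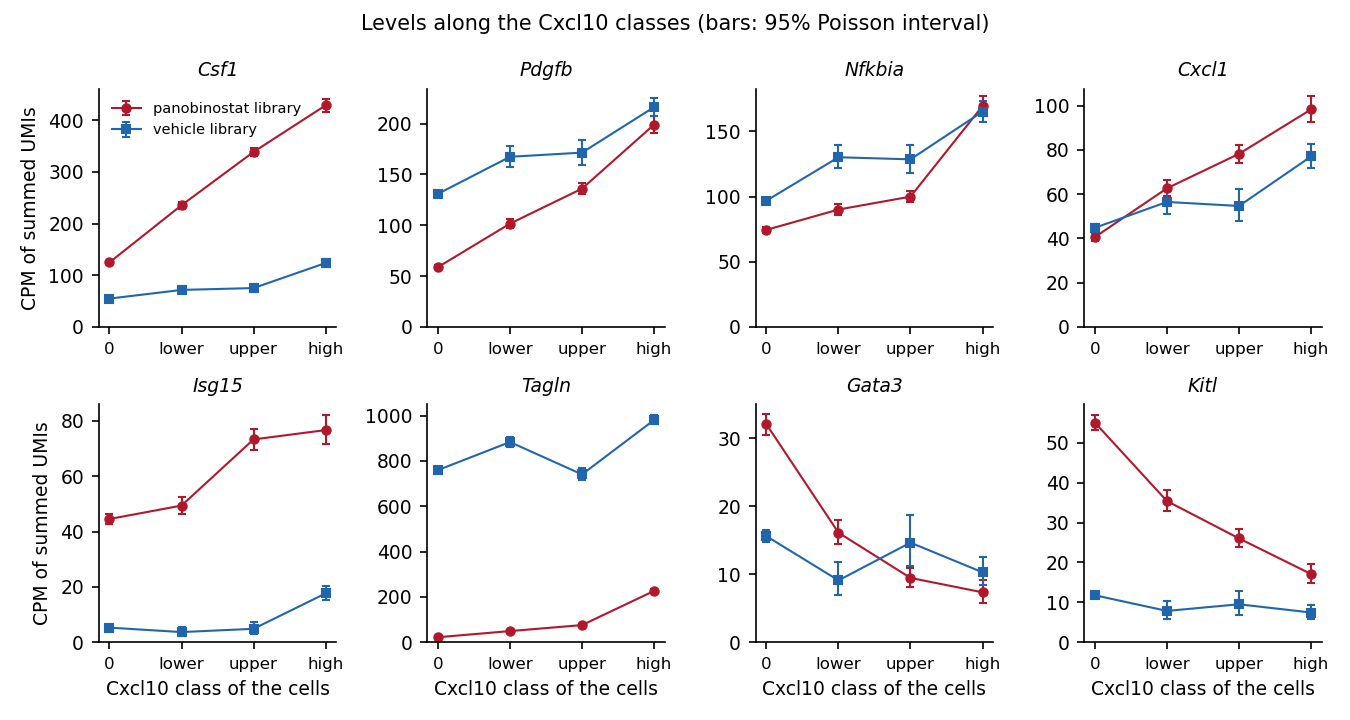
CPM of the summed UMIs (vertical axis, from 0) in cells with 0 Cxcl10 UMIs, the lower and upper class of other cells with a UMI and Cxcl10-high cells (horizontal axis), for 8 genes in the panobinostat library (red) and the vehicle library (blue), with 95% Poisson intervals. Csf1 climbs from class to class with panobinostat and has its largest step, to 124 CPM, in the Cxcl10-high class with vehicle.

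Over all cells of a library, the genes most like Cxcl10 were found by Pearson correlation of log-scaled counts among genes of at least 50 CPM, which describes cells that share a library and differ in depth. With panobinostat (2281 cells, 3076 genes) they were Csf1 (r = 0.389), Pdgfb (0.357), Timp3 (0.303) and Sox11 (0.3), and 95% of genes lay under 0.130. With vehicle (2854 cells, 3202 genes) they were Csf1 (0.206), Nfkbia (0.175), Hist1h1b (0.171) and Pdgfb (0.162), and 95% of genes lay under 0.0654. All of these correlations are weak at the level of single cells. Csf1 led the order in both libraries. The other marker, Isg15, had r = 0.108 with panobinostat, under the 0.130 below which 95% of genes lay. With vehicle it was not ranked, at 6.52 CPM over the library. The correlation uses the same Cxcl10 levels that chose the cells, so it is not a separate observation.

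Markers of the sorted lineage and of other cell types were set beside these results. Pax2 stood at 17.7 CPM in Cxcl10-high cells and 29.7 CPM in 0-UMI cells with panobinostat (log2 ratio -0.74) and at 36.1 and 41.2 CPM with vehicle (-0.19), and its relative Pax8 at 132 and 111 CPM (0.26) and at 126 and 118 CPM (0.09). None of 11 parietal epithelial and progenitor markers with panobinostat and 12 with vehicle at or above 10 CPM was called. The 11 leukocyte markers in the matrix summed to 72.6 CPM in Cxcl10-high and 87.2 CPM in 0-UMI cells with panobinostat, and to 7.47 and 8.09 CPM with vehicle. Ptprc, which defines leukocytes, was not called and stood at 1.70 and 1.79 CPM with panobinostat and at 0.807 and 0.599 CPM with vehicle. The 10 endothelial markers summed to 94.7 and 95.3 CPM with panobinostat and to 16.6 and 29.2 CPM with vehicle, and the 5 fibroblast markers in the matrix to 8.96 and 5.61 CPM and to 1.11 and 1.18 CPM. The mesangial markers, which include Gata3, summed to 20.97 and 50.7 CPM with panobinostat and to 11.9 and 18.9 CPM with vehicle, and the podocyte markers, which include Cdkn1c, to 76.9 and 88.1 CPM and to 28.3 and 45.2 CPM. Proximal tubule markers summed to 24.7 and 20.3 CPM with panobinostat and to 18.5 and 17.5 CPM with vehicle, and distal tubule and collecting duct markers to 3.41 and 2.44 CPM and to 0.202 and 0.157 CPM. The part of any other cell type in the results above was not tested.

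Further lists held few or no calls. Over all genes at or above 10 CPM, 0.588% were called higher and 0.384% lower with panobinostat, and 0.121% and 0.108% with vehicle. Short lists without a call are near these shares and show nothing particular about their genes. None of 10 genes of MHC class I presentation was called in either library, with medians of 0.11 and 0.06, nor any of 5 MHC class II genes with panobinostat (median 0.26), while with vehicle none reached 10 CPM. None of 8 chemokine and cytokine receptor genes with panobinostat and 6 with vehicle was called. The 15 kidney injury genes held no call, with medians of -0.03 and 0.01. Of 21 immediate early genes 1 was called lower with panobinostat (Fosb), and none of 18 with vehicle. No gene of the lists of stress, of CDK inhibitors and p53 targets, of cell death or of interferon gamma GTPases was called, and Cdkn1c, called lower with vehicle, is counted under the podocyte markers and not in the CDK inhibitor list.

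Levels in Cxcl10-high cells were also set side by side between the libraries. Among Cxcl10-high cells, the log2 ratio of panobinostat over vehicle was 1.79 for Csf1, 2.12 for Isg15 and 3.71 for Rsad2, against 1.18, 3.07 and 3.65 among 0-UMI cells. It was -2.11 for Tagln and -3.88 for Acta2 in Cxcl10-high cells, against -5.07 and -7.02 in 0-UMI cells. For Cxcl1, Nfkbia and Pdgfb it was 0.35, 0.04 and -0.12 in Cxcl10-high cells and -0.14, -0.38 and -1.15 in 0-UMI cells. The log2 ratio of high over 0-UMI cells was larger with panobinostat for Csf1 by 0.61 (interval 0.50 to 0.71) and for Pdgfb by 1.03 (0.93 to 1.14). For Isg15 the panobinostat minus vehicle difference was -0.95 (-1.23 to -0.67). The Cxcl10 level that defines the cells also differs between the libraries, and its part in these differences was not tested. With the panobinostat threshold of 287 CPM applied to both libraries, 38 vehicle cells remained, with log2 ratios of 1.87 for Csf1 and 3.23 for Isg15.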

How the data were processed

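Single-cell RNA-seq of 2 libraries, 1 per treatment, was used. The deposited table holds raw UMI counts for 19394 genes in 5135 cells, and the submitters' processing notes name Cell Ranger 3.0.1 and mm10. The gene annotation is not stated in these sources. Deposited cells all have at least 1798 genes and at most 9.98% mitochondrial UMIs. No cell or gene was removed, and no doublets were removed. The libraries held 104188927 UMIs with panobinostat and 90754967 with vehicle.

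UMIs were summed over Cxcl10-high and Cxcl10-zero cells of a library and scaled to CPM. A log2 ratio has an exact conditional binomial 95% interval, a share an exact Clopper-Pearson interval and a level an exact Poisson interval, and a count of 0 was set at 3 counts. Intervals cover counting error only. Calls needed 2-fold, an interval that excludes equality and 10 CPM in 1 cell group. The rule was run on simulated sums that held counting error alone. That run had no variation between cells, so it cannot tell how calls that rest on few cells behave. Shares of cells were compared after thinning to 18663 UMIs, the 10th percentile, which left out 60 panobinostat and 453 vehicle cells. Clusters used 2000 variable genes, 30 principal components, 15 neighbours and Leiden at resolution 0.5, without genes of the inflammatory lists. Python 3.11.15, numpy 2.4.6, scipy 1.17.1, scanpy 1.11.5, leidenalg 0.10.2 and matplotlib 3.10.9 were used, with R 4.3.3, edgeR 4.0.16 (TMM) and DESeq2 1.42.0 (size factors) for alternative scalings only.

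The cells and the 28 gene lists were chosen with earlier results of these data known. Named genes were, per library, the 12 largest and 8 smallest log2 ratios among genes of at least 50 CPM in 1 cell group and 10 UMIs in each, the genes called in both libraries, up to 6 per list, the 10 most correlated with Cxcl10 and a fixed set of inflammatory and lineage genes. Alternatives changed the scaling, the floor, the fold, the share of cells taken, the reference, the depth and the cells. At least 2 Cxcl10 UMIs, the cluster-weighted reference, clusters 0 and 3 alone and 1 threshold for both libraries were chosen after seeing the data. The result of 1 listed gene is not reported here.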

Additional observations from a re-analysis of the deposited data

Results flagged for a closer look

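Havcr1, the tubular injury marker Kim-1, and Rrm1, a subunit of ribonucleotide reductase, lay in opposite directions in the libraries. Havcr1 stood at 28.5 CPM in Cxcl10-high cells and 51.4 CPM in 0-UMI cells with panobinostat, and at 207.5 and 184 CPM with vehicle, so that the panobinostat minus vehicle difference of its log2 ratios was -1.019. Rrm1 stood at 12.9 and 17.1 CPM with panobinostat and at 127 and 83.3 CPM with vehicle, a difference of -1.01. Neither gene was called in either library, and with 1 library per treatment the differences were not tested.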

How the results depend on the processing

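No paired analysis was possible because each treatment has 1 library, and for the same reason no replicate could be left out. Counts of called genes are given as higher and lower with panobinostat, higher and lower with vehicle, and higher and lower in both. They were 49, 32, 10, 9, 3 and 5 as reported, and TMM, DESeq2 size factors and centring on the median gene kept each within 1.5 times. A floor of 50 CPM gave 21, 6, 4, 0, 1 and 0, no floor 357, 197, 142, 129, 25 and 23, a 1.5-fold rule 183, 113, 101, 46, 24 and 20, and a 3-fold rule 17, 12, 4, 4, 0 and 2. A floor of 5 CPM gave 49 lower with panobinostat and 15 with vehicle. The top 5% of cells gave 20 higher with vehicle and 10 higher in both, and the top 20% gave 5 higher and 5 lower with vehicle and 1 and 3 in both. All other cells as reference gave 21 and 12 with panobinostat, 6 higher with vehicle and 2 lower in both. Genes lower in both numbered 3 with the UMI-matched reference, 1 with thinned cells, 2 with the mean over cells and 8 with at least 2 Cxcl10 UMIs. Cells called G1 gave 73 and 79 with vehicle, where 48 Cxcl10-high cells were left, and 13 and 9 in both. Leaving out the top cell of each gene gave 5 and 15 with vehicle and 1 and 8 in both. The cluster-weighted reference gave 23 and 3 with panobinostat, 1 lower with vehicle and 0 lower in both. Cluster 0 alone gave 16 and 6 and cluster 3 alone 157 and 93 with panobinostat, the second from 43 Cxcl10-high cells. With 1 threshold, 38 vehicle cells gave 96 and 91, and 13 genes were higher in both.

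Directions turned for Kitl with panobinostat (0.26 cluster-weighted, 0.056 in cluster 0, 1.82 in cluster 3), Sprr2f (0.40 cluster-weighted, 3.58 in cluster 0), Sh3kbp1 (0.19 in cluster 0), and Gata3 (2.31) and Tnc (-0.047) in cluster 3, where Ltc4s was level (0.00). With vehicle Hist1h1b turned to -0.19 in cells called G1. Without thinning, 74.0% of vehicle Cxcl10-high cells held a Csf1 UMI, and 54.8% with panobinostat and 16.5% with vehicle an Isg15 UMI. With the top 20% on a list, the panobinostat and vehicle shares were 18.9% and 21.8% for interferon-stimulated genes, 45.6% and 28.8% for NF-kB, 8.77% and 8.07% for both and 44.3% and 57.5% for neither. At resolution 1 the cluster with most Cxcl10-high cells held 33.8% of them with panobinostat and 32.3% with vehicle. The cause of these moves was not tested. Of the list medians, 690 kept their value within the rule and 28 moved. With vehicle 43 of 285 cells were chosen on 1 Cxcl10 UMI, where counting error is large.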
